A study of Mus musculus with 12 samples.

Results

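Aggrecan, versican and the genes that make, hold and break down hyaluronan were followed through 3 zones of the embryonic mouse tibia. The set held 9 genes, chosen by symbol: Acan and Vcan (aggrecan and versican, large proteoglycans), Hapln1 and Hapln3 (link proteins), Has2 and Has3 (hyaluronan synthases), Hyal1 and Hyal2 (hyaluronidases) and Cd44 (a hyaluronan receptor). In all 18192 genes had a probe set named by their symbol alone, among them 8 of these 9, while the 2 probe sets for Hyal1 are shared with Naa80, so no value is given for Hyal1. The other 8 genes had 22 probe sets, and the probe set with the highest mean log2 signal stands for each gene. Of these 8, 7 reached a mean of 50 in some zone and were tested. Has3 did not pass this filter.

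Tibiae came from CD1 mouse embryos at embryonic day 15.5, from 4 litters, and were cut by hand into zones I, II and III. The strain is named in the study's methods, which describe no treatment of the tissue and no genetic change. Zone I is the outer end with resting and proliferating chondrocytes, zone II the next segment with prehypertrophic and hypertrophic chondrocytes, and zone III the middle of the bone, where cartilage is mineralized and replaced. Segments of a zone were pooled within a litter, each array holds 1 such pool, and 4 Affymetrix MOE 430 2.0 arrays (A to D) represent each zone, 12 in all. A segment was cut by eye and holds every cell type present there, so a larger share of a cell type and more RNA per cell cannot be told apart.

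Hyaluronan is a long sugar chain that is spun out through the plasma membrane by hyaluronan synthases. Aggrecan and versican belong to the lecticans, proteoglycans that bind hyaluronan at one end, and a link protein locks each of them to the chain. In cartilage the aggregates of aggrecan, link protein and hyaluronan hold water and give the tissue its stiffness, whereas versican is known from early mesenchyme, perichondrium and other loose matrix. Hyaluronidases cleave the chain, Cd44 holds it at the cell surface and takes it up, and ADAMTS proteases cut the lectican core proteins.

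The genes for the aggrecan aggregate peaked in zone II. Acan, Hapln1 and Has2 were highest in zone II, lower in zone I and lowest in zone III, and all 3 differences between zones passed the test for each of them. For Acan the rise from zone I to zone II did not pass after quantile normalization or after centring on ribosomal protein genes. Vcan ran in another order, highest in zone I and lowest in zone II. Cd44 was highest in zone III and lowest in zone II. Between zone II and zone I, 4 of the 7 tested genes rose (Acan, Hapln1, Hapln3 and Has2) and 2 fell (Vcan and Cd44), where 41.4% of all 11807 tested genes changed (16% rose and 25.4% fell, limma, Benjamini-Hochberg adjusted p under 0.05). Between zone III and zone II, 3 rose (Vcan, Cd44 and Hyal2) and 4 fell (Acan, Hapln1, Hapln3 and Has2), against 53.6% of all genes (30.8% rose and 22.7% fell). Between zone III and zone I, 1 rose (Cd44) and 4 fell (Acan, Vcan, Hapln1 and Has2), against 43.3% of all genes (21.6% rose and 21.7% fell). The median log2 difference of the 7 genes was 0.57, −0.56 and −0.86 in these 3 comparisons, beside −0.09, 0.08 and −0.01 over all tested genes.

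**Figure D1:**
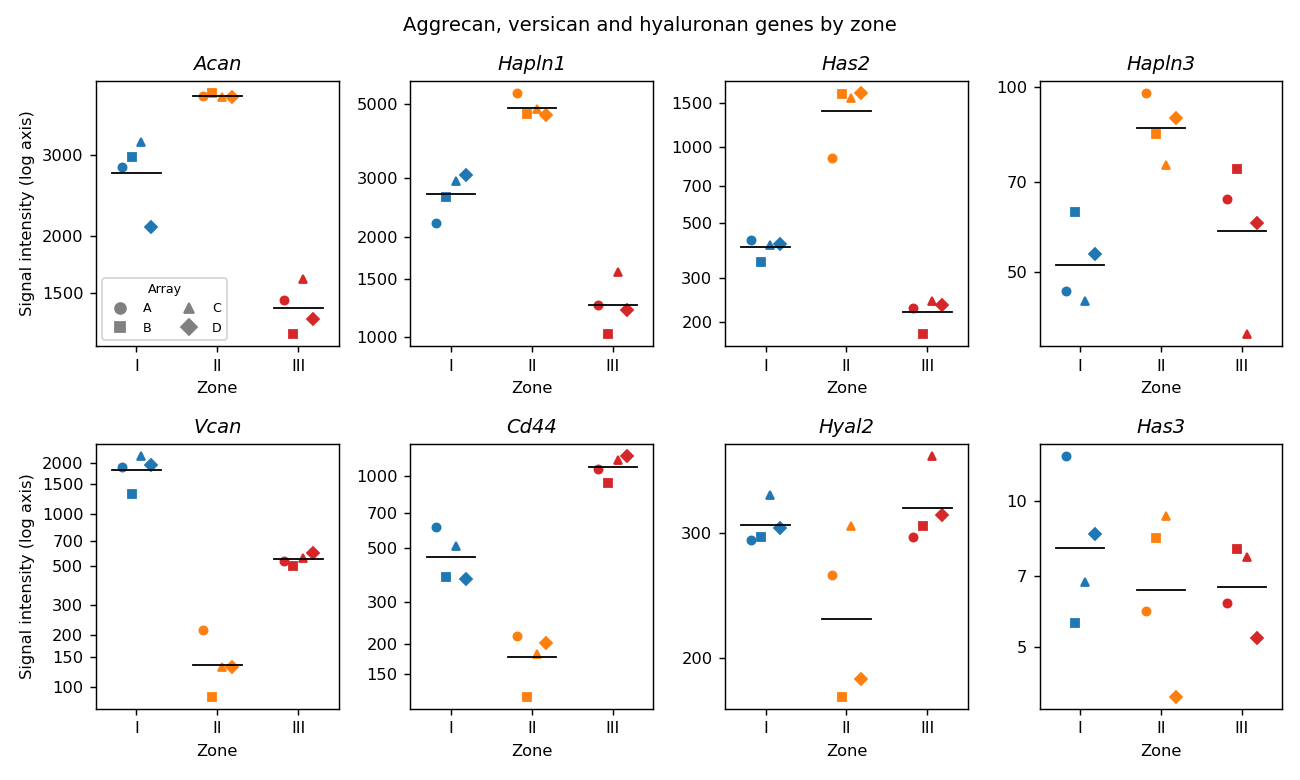
Signal intensity of 8 genes on each of 12 arrays (log axis, 1 panel per gene, its own scale), by zone of the tibia, with array letters as symbols and the bar at the geometric mean of the 4 arrays. Acan, Hapln1 and Has2 peak in zone II, Vcan and Cd44 are lowest there, and Has3 stays at 12.4 or less on every array.

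The start regions of Acan, Hapln1 and Cd44 are shown because no other tested gene of the set had a usable window. The windows of Vcan, Hapln3 and Hyal2 lay inside the annotated gene, and none was available for Has2. Acan and Hapln1 rose and fell together, and Cd44 went the other way. Each run is the 140 bases just before the annotated gene, 5′ to 3′ on the strand of the gene, taken from RefSeq (GRCm38.p6): Acan at chr7:79053086-79053225 on the plus strand, Hapln1 at chr13:89540389-89540528 on the plus strand and Cd44 at chr2:102901670-102901809 on the minus strand. Capitals mark matches to the letters searched on both strands, which were TATAAA (the TATA box), GGGCGG (the GC box), and ACAAAG and ACAATG (sequences bound by SOX factors).
Acan: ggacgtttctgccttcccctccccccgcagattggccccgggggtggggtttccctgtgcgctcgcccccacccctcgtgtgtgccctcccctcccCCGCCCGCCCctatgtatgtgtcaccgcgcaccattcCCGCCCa
Hapln1: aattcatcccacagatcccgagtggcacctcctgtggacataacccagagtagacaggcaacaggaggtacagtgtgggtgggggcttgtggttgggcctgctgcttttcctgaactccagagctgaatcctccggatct
Cd44: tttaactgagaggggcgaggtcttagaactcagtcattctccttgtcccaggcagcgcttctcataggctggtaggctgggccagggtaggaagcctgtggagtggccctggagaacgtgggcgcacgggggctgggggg
The Acan window held 3 GC box matches, all on the opposite strand, 2 of which overlap each other (bases 44 to 39 and 40 to 35 before the gene) while the other lies at bases 7 to 2. No match to the 4 searched words was found in the Hapln1 and Cd44 windows. Among 32851 windows of the same length, the GC box was present in 28%, TATAAA in 7.21%, ACAAAG in 9.16% and ACAATG in 5.69%. Those windows were cut at a fixed place in each promoter sequence. Unlike the windows of the set, they were not moved or left out where they lay inside an annotated gene. G and C made up 71.4% of the Acan window, 55.7% of the Hapln1 window and 62.1% of the Cd44 window, beside a median of 54.3% over all windows. Such matches describe the letters only.

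Acan encodes the core protein of aggrecan, the main proteoglycan of cartilage. On the zone I arrays its signals were 2826, 2970, 3206 and 2086, on the zone II arrays 4047, 4102, 4027 and 4024 and on the zone III arrays 1446, 1219, 1610 and 1314 (arrays A to D). Every array of zone II was above every array of zone I, and every array of zone III was below both. Acan averaged 2772 ± 484 (zone I), 4050 ± 36.1 (zone II) and 1397 ± 170 (zone III) (SD, n = 4 each). The zone II minus zone I difference was 0.57 ± 0.14 on the log2 scale (SE, limma, adjusted p = 0.00718), a 1.48-fold rise. Acan was 2.91-fold lower in zone III than in zone II (−1.54 ± 0.14, adjusted p = 2.1e-06) and 1.97-fold lower in zone III than in zone I (−0.98 ± 0.14, adjusted p = 1.3e-04). The small rise in zone II depended on the scaling of the arrays, with 0.25 (adjusted p = 0.194) after quantile normalization and 0.27 (adjusted p = 0.126) after centring on ribosomal protein genes.

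Hapln1 encodes the link protein of cartilage, which fixes aggrecan to hyaluronan. Signals on the zone I arrays were 2198, 2636, 2947 and 3062, on the zone II arrays 5387, 4653, 4813 and 4629 and on the zone III arrays 1250, 1024, 1573 and 1207. The 3 zones did not overlap. The zone I mean was 2711 ± 386, the zone II mean 4871 ± 354 and the zone III mean 1263 ± 229 (SD, n = 4 each). Hapln1 was 1.81-fold higher in zone II than in zone I (0.85 ± 0.15 SE, adjusted p = 7.2e-04) and 3.89-fold lower in zone III than in zone II (−1.96 ± 0.15, adjusted p = 4.7e-07). In zone III it was 2.15-fold lower than in zone I (−1.11 ± 0.15, adjusted p = 7.5e-05). All 4 probe sets of Hapln1 passed the filter and the test in each comparison, with 0.74 to 0.95 for zone II minus zone I, −2.19 to −1.96 for zone III minus zone II and −1.45 to −1.10 for zone III minus zone I.

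Has2 encodes the hyaluronan synthase on which limb development in the mouse depends most. On the zone I arrays its signals were 428, 350, 408 and 412, and on the zone II arrays 902, 1632, 1573 and 1645. On the zone III arrays they were 229, 180, 243 and 235. The zones did not overlap, but array A of zone II lay well under the other 3 arrays of that zone. The zone I mean was 399 ± 34.4, the zone II mean 1438 ± 359 and the zone III mean 221 ± 28.6 (SD, n = 4 each). Has2 made the largest step up among the 7 tested genes between zone II and zone I, 3.51-fold (1.81 ± 0.19 SE, adjusted p = 1.5e-05), and the largest step down between zone III and zone II, 6.35-fold (−2.67 ± 0.19, adjusted p = 2.9e-07). It was 1.81-fold lower in zone III than in zone I (−0.86 ± 0.19, adjusted p = 0.00307). Without array A of zone II the first 2 differences were 2.02 and −2.88. The second Has2 probe set gave 1.47, −2.76 and −1.28 in the 3 comparisons, each past the test, and its array A of zone II read 1024 against 1090 to 1348 on the other arrays.

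**Figure D2:**
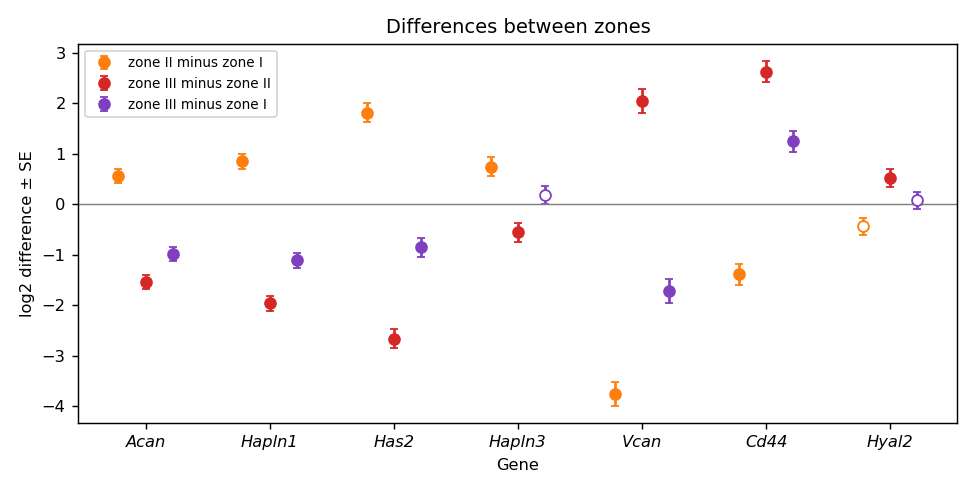
The log2 difference of each of the 7 tested genes between zones, with its SE from limma (n = 4 arrays a zone). Filled points passed an adjusted p under 0.05 and open points did not. The signs of Acan, Hapln1, Has2 and Hapln3 are opposite to those of Vcan, Cd44 and Hyal2 in the first 2 comparisons.

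Hapln3, a link protein related to Hapln1, was near the filter. On the zone I arrays its signals were 46.4, 62.5, 44.8 and 53.4, on the zone II arrays 97.6, 83.7, 74.5 and 88.9 and on the zone III arrays 65.7, 73.6, 39.6 and 60.0. The arrays of zone II were above all others, while zones I and III overlapped. The zone I mean was 51.8 ± 8.05, the zone II mean 86.2 ± 9.67 and the zone III mean 59.7 ± 14.5 (SD, n = 4 each). Hapln3 rose 1.67-fold in zone II against zone I (0.74 ± 0.19 SE, adjusted p = 0.00775) and fell 1.47-fold in zone III against zone II (−0.56 ± 0.19, adjusted p = 0.0246). Zone III and zone I differed by 0.18 ± 0.19 (adjusted p = 0.474). The fall did not pass the test without array A of zone II (−0.50, adjusted p = 0.0627), without array D of zone II (−0.54, adjusted p = 0.0514) or without array C of zone III (−0.37, adjusted p = 0.0663). With arrays centred on ribosomal protein genes both steps missed the threshold (0.44, adjusted p = 0.106, and −0.12, adjusted p = 0.627). Without the filter the fall in zone III against zone II also missed the threshold (−0.56, adjusted p = 0.0663).

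Has3 encodes a further hyaluronan synthase. Its signals ran over 5.60 to 12.4 (zone I), 3.94 to 9.33 (zone II) and 5.22 to 7.98 (zone III). All 12 arrays were far below 50 and the zones overlapped, so no order of zones is given.

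Vcan encodes versican. Signals on the zone I arrays were 1885, 1318, 2189 and 1948, on the zone II arrays 214, 87.7, 130 and 130 and on the zone III arrays 535, 505, 561 and 600. The zones did not overlap, and array A of zone II was the highest of its zone. The zone I mean was 1835 ± 369, the zone II mean 140 ± 52.7 and the zone III mean 550 ± 40.5 (SD, n = 4 each). Vcan was 13.5-fold lower in zone II than in zone I (−3.76 ± 0.23 SE, adjusted p = 2.5e-07), the largest difference of any tested gene of the set. It was 4.12-fold higher in zone III than in zone II (2.04 ± 0.23, adjusted p = 1.4e-05) and 3.29-fold lower in zone III than in zone I (−1.72 ± 0.23, adjusted p = 8.8e-05).

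Vcan had 8 probe sets, of which 3 passed the filter, and these 3 passed the test in the same direction in each comparison. The second gave −3.72, 2.28 and −1.44. The third gave −5.04, 1.83 and −3.21, from signals of 190 to 261 (zone I), 5.82 to 8.21 (zone II) and 9.74 to 51.3 (zone III), and a fold against signals this low depends on the background. Of the 5 probe sets under the filter, the highest mean in any zone was 31.2. Which versican isoforms these probe sets detect was not analysed here.

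**Figure D3:**
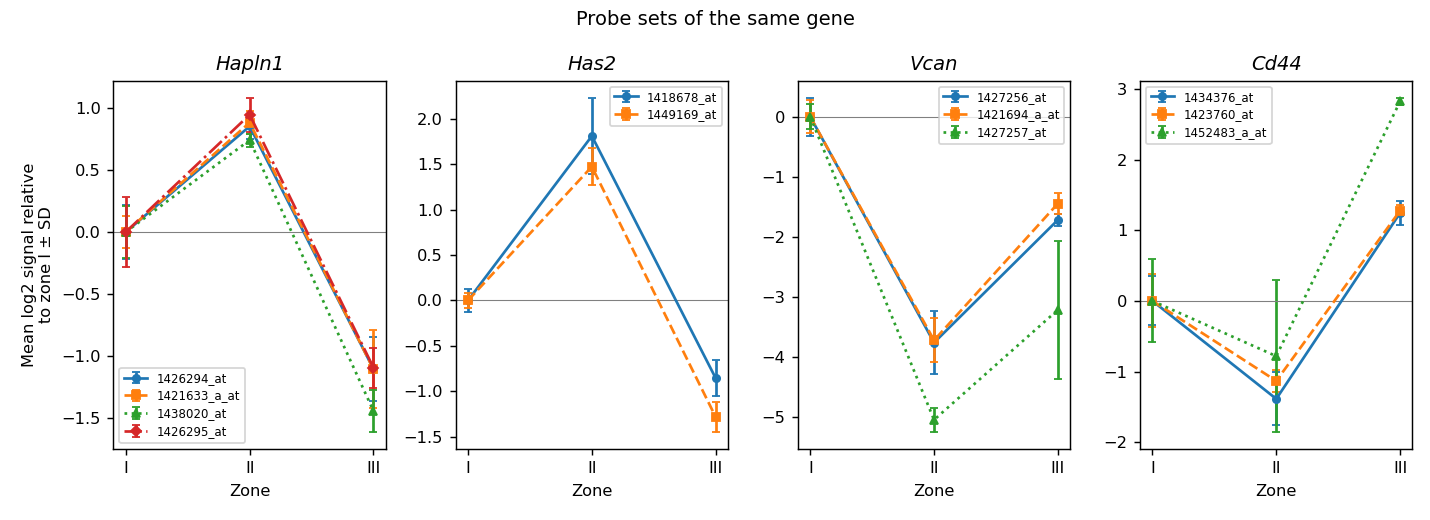
Mean log2 signal of each probe set that passed the filter, relative to its own mean in zone I, for Hapln1, Has2, Vcan and Cd44 (bars are SD over 4 arrays, 1 line per probe set). The probe sets of a gene turn in the same direction at each zone, and 1 probe set each of Vcan and Cd44 departs in size.

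Cd44 encodes the main cell surface receptor for hyaluronan, which chondrocytes, macrophages and osteoclasts are known to carry. Signals on the zone I arrays were 615, 382, 511 and 375, on the zone II arrays 216, 121, 182 and 202 and on the zone III arrays 1065, 936, 1168 and 1214. The zones did not overlap. The zone I mean was 471 ± 115, the zone II mean 180 ± 42.0 and the zone III mean 1096 ± 124 (SD, n = 4 each). Cd44 was 2.61-fold lower in zone II than in zone I (−1.39 ± 0.21 SE, adjusted p = 2.3e-04), 6.19-fold higher in zone III than in zone II (2.63 ± 0.21, adjusted p = 6.4e-07) and 2.37-fold higher in zone III than in zone I (1.24 ± 0.21, adjusted p = 4.0e-04).

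A second Cd44 probe set gave −1.13, 2.41 and 1.28, each past the test. The third was low outside zone III, with means of 11.9 ± 4.32 (zone I), 7.95 ± 5.45 (zone II) and 79.2 ± 2.85 (zone III). It rose in zone III against zone II (3.60 ± 0.44 SE, adjusted p = 2.4e-05) and against zone I (2.82 ± 0.44, adjusted p = 2.4e-04), while its zone II minus zone I difference was −0.78 ± 0.44 (adjusted p = 0.185). The fourth did not pass the filter, at 4.62 or less on every array.

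Hyal2 encodes a hyaluronidase anchored at the cell surface that cuts long chains into shorter pieces. Signals on the zone I arrays were 293, 296, 339 and 304, on the zone II arrays 261, 176, 306 and 186 and on the zone III arrays 296, 307, 385 and 318. All 3 zones overlapped, and array C was the highest in each zone. The zone I mean was 308 ± 21.1, the zone II mean 233 ± 62.1 and the zone III mean 326 ± 39.9 (SD, n = 4 each). Zone III was 1.43-fold above zone II (0.52 ± 0.17 SE, adjusted p = 0.0240), while zone II minus zone I was −0.44 ± 0.17 (adjusted p = 0.0621) and zone III minus zone I was 0.08 ± 0.17 (adjusted p = 0.753). The rise in zone III did not pass the test without array B of zone II (0.40, adjusted p = 0.0729), array D of zone II (0.43, adjusted p = 0.0704) or array C of zone III (0.44, adjusted p = 0.0750). It also missed the threshold after quantile normalization (0.35, adjusted p = 0.0985) and with arrays centred on their median (0.29, adjusted p = 0.245), and without the filter (adjusted p = 0.0661). The zone II minus zone I difference passed without array C of zone II (−0.59, adjusted p = 0.0134), with arrays centred on ribosomal protein genes (−0.74, adjusted p = 0.00358), with the filter at 100 (adjusted p = 0.0464) and with a robust mean-variance trend (adjusted p = 0.0461).

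Some of these genes lie next to each other in the genome, with 0 annotated genes between them in GRCm38.p6. Hapln1 and Vcan are neighbours on chromosome 13. Their signs were opposite between zone II and zone I (0.85 and −3.76) and between zone III and zone II (−1.96 and 2.04). Between zone III and zone I both fell (−1.11 and −1.72). Acan and Hapln3 are neighbours on chromosome 7. They had the same sign between zone II and zone I (0.57 and 0.74) and between zone III and zone II (−1.54 and −0.56). Between zone III and zone I Acan fell (−0.98), while Hapln3 had 0.18 and did not pass the test. Hyal1 and Hyal2 are neighbours on chromosome 9.

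Pearson's r of log2 signal over the 12 arrays was 0.95 for Acan with Hapln1, 0.89 for Acan with Has2 and 0.92 for Hapln1 with Has2. Cd44 had r of −0.90, −0.94 and −0.94 with Acan, Hapln1 and Has2, and Vcan had −0.39, −0.44 and −0.69 with them. Cd44 and Vcan had r of 0.58 with each other. The 12 points share 3 zones and each array's scaling, so these values describe the zone means as much as the arrays.

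Among 11800 other tested genes, those most like each gene over the 12 arrays were found by the same r. For Acan they were Rtcb (0.985), Chst11, a chondroitin sulphotransferase (0.983), and Cd24a (0.979). For Hapln1 they were Rdh11 (0.986), Ddc (0.983) and Mcoln2 (0.982), and for Has2 Mettl26 (0.987), Ltv1 (0.983) and Elp5 (0.982). For Vcan they were Fbn2, a fibrillin (0.993), Pdpn (0.990) and Rbms3 (0.988). For Cd44 they were Wbp1 (0.992), Afdn (0.990) and Clu (0.989). The leading values of the weaker genes were lower, with Mipep (0.920), Timm22 (0.918) and Slc25a1 (0.908) for Hapln3 and Dock4 (0.930), Krt10 (0.898) and Slc39a1 (0.882) for Hyal2.

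The sugar nucleotides from which hyaluronan is built are made by a short set of cytosolic enzymes, all 7 of which passed the filter. Between zone II and zone I 5 of 7 rose and 0 fell, between zone III and zone II 0 rose and 7 fell, and between zone III and zone I 0 rose and 4 fell. Over all tested genes 16% rose and 25.4% fell, 30.8% rose and 22.7% fell, and 21.6% rose and 21.7% fell in these comparisons. These shares also stand beside the counts of the lists below. The median log2 differences of the 7 enzymes were 0.48, −1.30 and −0.76. After quantile normalization and after centring on ribosomal protein genes only 2 rose between zone II and zone I, and 1 of the 7 then had a value below 0. The rise of Gfpt2 (0.59, adjusted p = 0.0395) was lost when array A, C or D of zone I, array A, B or D of zone II or array B or C of zone III was left out (0.45 to 0.62, adjusted p from 0.0502 to 0.111), and that of Uap1 (0.41, adjusted p = 0.0210) without array B or C of zone I or of zone II (0.37 to 0.39, adjusted p from 0.0516 to 0.0544). Ugp2, which makes UDP-glucose, averaged 1684 ± 46.9 (zone I), 3323 ± 293 (zone II) and 992 ± 55.4 (zone III). It was 1.97-fold higher in zone II than in zone I (adjusted p = 1.3e-05) and 3.34-fold lower in zone III than in zone II (adjusted p = 5.9e-08). Ugdh, which turns UDP-glucose into UDP-glucuronic acid, had 0.48 (adjusted p = 0.00331) and −0.61 (adjusted p = 4.0e-04) for these steps. Both of its values missed the threshold after quantile normalization (0.18 and −0.17) and after centring on ribosomal protein genes (0.18 and −0.17).

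The other branch makes UDP-N-acetylglucosamine. Gfpt2, an enzyme of its first step, fell 4.78-fold in zone III against zone II (−2.26 ± 0.21 SE, adjusted p = 2.3e-06) and 3.17-fold in zone III against zone I (adjusted p = 4.2e-05). Uap1, which carries out the last step, fell 2.38-fold in zone III against zone I (adjusted p = 7.0e-06). Pgm3 was 1.72-fold higher in zone II than in zone I (0.78 ± 0.17, adjusted p = 0.00365). These enzymes also feed other glycan pathways.

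Of 10 other hyaluronan synthase and degrading enzymes, 9 had a probe set and 5 were tested. In zone III against zone II 4 of 5 rose and 0 fell, and in zone III against zone I again 4 rose and 0 fell, while in zone II against zone I 1 rose and 1 fell. Cemip binds hyaluronan and drives its breakdown. Its signals were 28.6, 30.8, 34.1 and 19.0 on the zone I arrays and 98.9, 78.9, 72.8 and 68.6 on those of zone II. On the zone III arrays Cemip read 534, 614, 541 and 570. It was higher in each zone than in the one before without overlap, by 2.88-fold in zone II against zone I (1.52 ± 0.18 SE, adjusted p = 3.5e-05) and 7.14-fold in zone III against zone II (2.84 ± 0.18, adjusted p = 1.1e-07). The difference between zone III and zone I was 20.5-fold (4.36 ± 0.18, adjusted p = 5.8e-09), and both folds against zone I rest on zone I signals under 50. Cemip2, a membrane protein related to Cemip, fell 2.14-fold in zone II against zone I (adjusted p = 3.1e-04) and rose 4.07-fold in zone III against zone II (adjusted p = 1.1e-06). Gusb, a lysosomal glucuronidase, was 2.18-fold higher in zone III than in zone I (adjusted p = 4.6e-04). Has1, the other synthase, averaged 83.8 ± 14.4 (zone I), 78.3 ± 16.5 (zone II) and 52.7 ± 20.7 (zone III) and did not pass the test in any comparison (adjusted p = 0.816, 0.0832 and 0.0571). Its last 2 differences passed after quantile normalization (adjusted p = 0.0206 and 0.0313) and after centring on the median (adjusted p = 0.0229 and 0.0341).

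Hyaluronan receptors and binding proteins other than Cd44 numbered 15, of which 8 passed the filter. Between zone II and zone I 0 of 8 rose and 7 fell, between zone III and zone II 5 rose and 1 fell, and between zone III and zone I 1 rose and 4 fell. Tnfaip6 binds hyaluronan and transfers heavy chains onto it. It averaged 684 ± 213 (zone I), 73.8 ± 47.7 (zone II) and 105 ± 7.52 (zone III). It fell 10.2-fold in zone II against zone I (−3.34 ± 0.33 SE, adjusted p = 9.8e-06) and was 6.32-fold lower in zone III than in zone I (adjusted p = 4.2e-05). Its zone III minus zone II difference was 0.68 ± 0.33 (adjusted p = 0.105) and passed without array A of zone II (1.07, adjusted p = 0.00144), with arrays centred on ribosomal protein genes (1.12, adjusted p = 0.00901), with array weights (0.84, adjusted p = 0.0204) and with the array letter as a block (adjusted p = 0.0405). Itih5, a heavy chain of that kind, fell 6.56-fold in zone II against zone I (adjusted p = 6.0e-07) and rose 5.78-fold in zone III against zone II (adjusted p = 4.3e-07).

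Lyve1, a receptor of lymphatic endothelium and of some macrophages, had signals of 208, 170, 127 and 197 on the zone I arrays, 63.9, 6.09, 10.1 and 7.81 on those of zone II and 128, 110, 117 and 139 on those of zone III. Zone II was below both other zones, with array A far above its other arrays. Lyve1 fell in zone II against zone I (−3.71 ± 0.56 SE, adjusted p = 2.8e-04) and rose in zone III against zone II (3.22 ± 0.56, adjusted p = 4.4e-04), both against signals mostly under 50. Stab1, a scavenger receptor for hyaluronan, was 5.01-fold higher in zone III than in zone II (adjusted p = 3.6e-05), where its signals were under 50, and 2.15-fold higher than in zone I (adjusted p = 0.0101). Layn, layilin, fell 2.58-fold in zone II against zone I (adjusted p = 0.00142). Hmmr, which binds hyaluronan and the mitotic spindle, was 1.98-fold lower in zone III than in zone I (adjusted p = 0.00177). Its fall in zone III against zone II (−0.55, adjusted p = 0.0378) missed the threshold without array B, C or D of zone II or array C or D of zone III (−0.58 to −0.41, adjusted p from 0.0502 to 0.116), and was −0.11 (adjusted p = 0.671) after centring on ribosomal protein genes.

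The 7 lectican proteases and Timp3, their inhibitor, passed the filter. All 8 fell in zone II against zone I, with a median log2 difference of −1.06, and 6 rose and 2 fell in zone III against zone II. In zone III against zone I 2 rose and 3 fell. After quantile normalization and after centring on the median 7 fell in the first comparison, Adamts4 no longer passing, and by the median of its probe sets Adamts9 had 0.01 there. Adamts5, the main aggrecan-cleaving protease of mouse cartilage, averaged 112 ± 24.4 (zone I), 20.6 ± 8.97 (zone II) and 97.1 ± 12.9 (zone III). It was 5.96-fold lower in zone II than in zone I (−2.58 ± 0.34 SE, adjusted p = 9.0e-05) and 5.22-fold higher in zone III than in zone II (2.38 ± 0.34, adjusted p = 8.4e-05), both against zone II signals under 50. Adamts4, a second aggrecanase, averaged 138 ± 25.2 (zone I), 85.0 ± 21.9 (zone II) and 387 ± 87.7 (zone III). It was 4.56-fold higher in zone III than in zone II (adjusted p = 3.6e-06), and its fall in zone II against zone I (−0.71, adjusted p = 0.0186) missed the threshold without array A or C of zone I or array C of zone II (−0.65 to −0.62, adjusted p from 0.0515 to 0.0537).

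The proteases of this list did not keep a single order of zones. Adamts9 was 4.85-fold higher in zone III than in zone II (adjusted p = 4.9e-08). Adamts15 was 5.19-fold lower in zone II than in zone I (adjusted p = 5.9e-07) and 3.53-fold lower in zone III than in zone I (adjusted p = 3.0e-06), against mean signals under 50 in zones II and III. Adamts20 and Adamts8 were lowest in zone III, 4.15-fold and 3.99-fold below zone I (adjusted p = 3.0e-07 and 7.1e-05), with zone III signals under 50. The fall of Adamts8 in zone III against zone II (−0.80, adjusted p = 0.0229) missed the threshold without array A, C or D of zone II or array B or D of zone III (−0.76 to −0.64, adjusted p from 0.0525 to 0.0733), and was −0.37 (adjusted p = 0.221) after centring on ribosomal protein genes.

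Of 9 other lecticans, link proteins and lectican ligands, 8 had a probe set and 6 were tested. Between zone II and zone I 0 rose and 3 fell, between zone III and zone II 3 rose and 1 fell, and between zone III and zone I 3 rose and 2 fell. Bcan, brevican, a lectican best known from brain, averaged 156 ± 32.0 (zone I), 105 ± 24.8 (zone II) and 682 ± 139 (zone III), a 6.56-fold rise in zone III against zone II (2.71 ± 0.22 SE, adjusted p = 8.8e-07) and a 4.37-fold rise against zone I (adjusted p = 9.3e-06). Ncan, neurocan, was near 50 in zone I (55.2 ± 6.24) and 1.57-fold lower in zone III (35.7 ± 8.55, adjusted p = 0.00807). Tnc, tenascin-C, a ligand of lecticans, was 4.14-fold lower in zone II than in zone I (adjusted p = 4.7e-07) and 10.6-fold higher in zone III than in zone II (adjusted p = 1.1e-08). Fbln1 fell 3.54-fold in zone II against zone I (adjusted p = 1.0e-04), though −0.61 (adjusted p = 0.109) by the median of its probe sets, and Fbln2, a related fibulin, fell 3.05-fold in zone III against zone I (adjusted p = 3.0e-05).

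**Figure D4:**
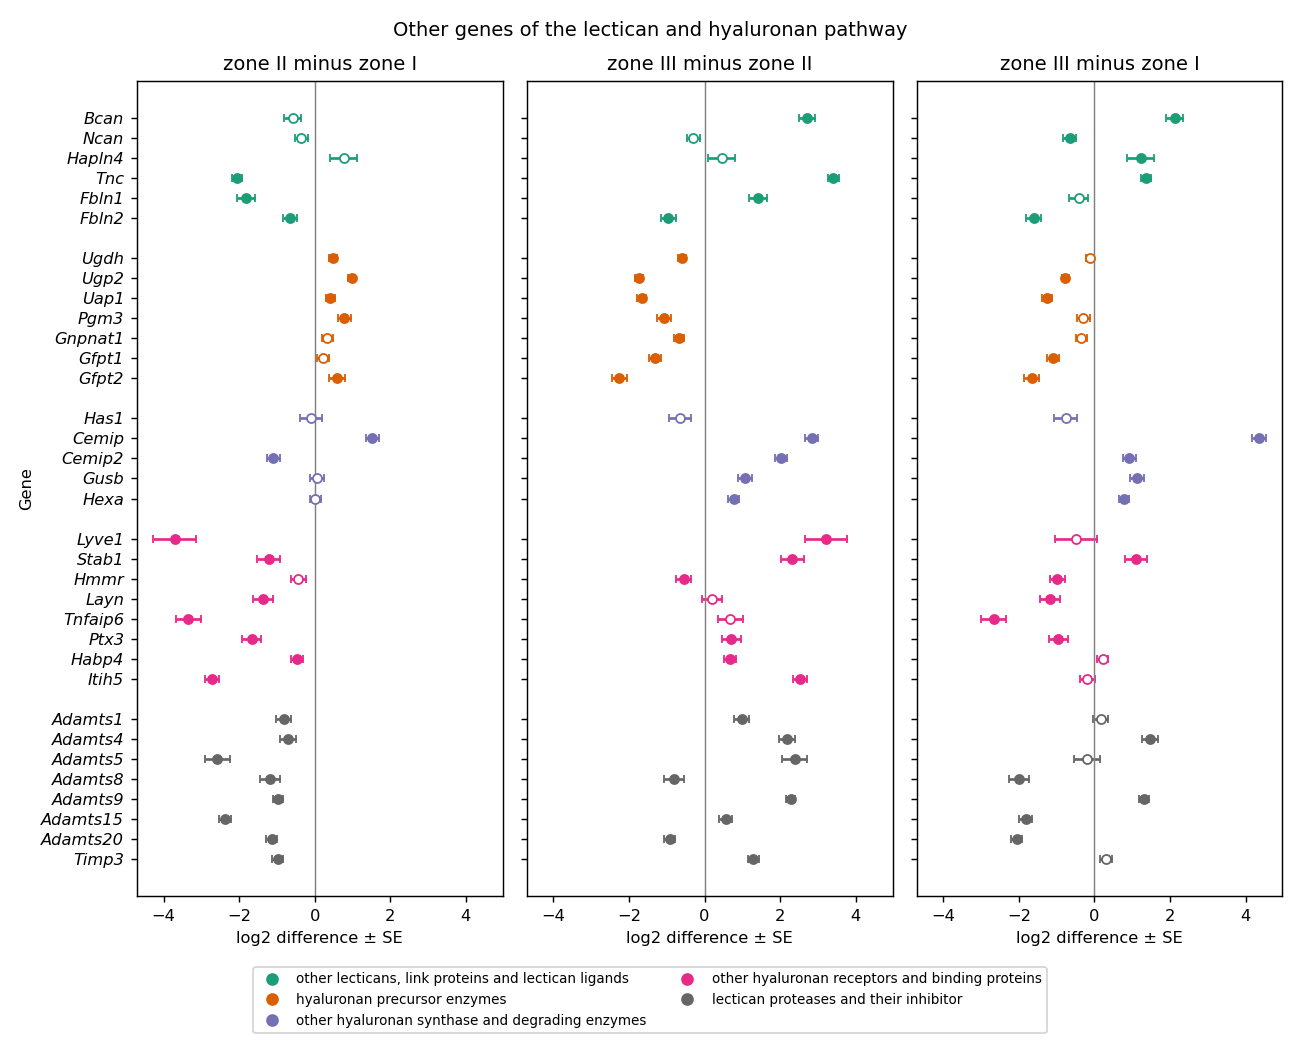
The log2 difference (SE from limma) of the 34 tested genes of the 5 pathway lists, by comparison, with colours for the lists. Filled points passed an adjusted p under 0.05. In zone III against zone II 7 of 7 precursor enzymes fell, and in zone II against zone I 8 of 8 genes of the protease list and 7 of 8 binding proteins fell.

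Over the 5 lists together 34 of 49 genes were tested. Of these 6 rose and 19 fell in zone II against zone I, 18 rose and 11 fell in zone III against zone II, and 10 rose and 13 fell in zone III against zone I. Over all tested genes 16% rose and 25.4% fell, 30.8% rose and 22.7% fell, and 21.6% rose and 21.7% fell in these comparisons.

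Markers of some other cell types had the order of zones of Vcan or Cd44, and others did not. The part of any of them in these results was not tested. Summed over 7 perichondrium and tendon markers (all 7 detected), the signal was 4014 to 6771 (zone I), 614 to 1171 (zone II) and 1841 to 2185 (zone III), the same order of zones as Vcan. All 7 of these fell in zone II against zone I, and 3 rose and 1 fell in zone III against zone II. Summed over 8 macrophage markers the signal was 1200 to 2055 (zone I), 626 to 1000 (zone II) and 4291 to 5211 (zone III), the order of Cd44, with Fcgr1 and C1qa averaging under 50 in every zone. The 6 macrophage markers tested all rose in zone III against zone II, whereas 3 of 6 fell and 0 rose in zone II against zone I, and 3 rose and 1 (Mrc1) fell in zone III against zone I. Csf1r made up most of this sum in zone III, with a mean of 2749 there. Mrc1 (262, 51.3 and 127 in zones I, II and III) and C1qb (184, 43.1 and 158) averaged highest in zone I, unlike Cd44. Neither C1qb nor Adgre1 passed the test in zone III against zone I (adjusted p = 0.616 and 0.689). The order of Cd44 also held for the sum of the 7 endothelial markers. They summed to 519 to 993 (zone I), 192 to 420 (zone II) and 2200 to 2461 (zone III). All 7 fell in zone II against zone I and rose in zone III against zone II. The 7 osteoclast markers summed to 661 to 746 (zone I), 640 to 1609 (zone II) and 11854 to 14114 (zone III), and 7 of 7 rose in zone III against zone II. In zone II against zone I 2 of them rose, 1 fell and 4 did not pass the test. No marker of the last 2 lists or of the perichondrium and tendon list was under 50 in every zone.

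Chondrocyte markers fell in zone III, as Acan, Hapln1 and Has2 did, and their part in those results was not tested. The 6 markers summed to 14922 to 18248 (zone I), 19729 to 22680 (zone II) and 6875 to 8591 (zone III), and 6 of 6 fell in zone III against zone II and against zone I, while 1 of 6 (Matn3) rose and 0 fell in zone II against zone I. The 4 hypertrophic markers summed to 307 to 501 (zone I), 8753 to 9972 (zone II) and 7897 to 9302 (zone III). The 5 measured osteoblast markers summed to 1142 to 1678 (zone I), 3973 to 6228 (zone II) and 10828 to 11948 (zone III). Of these 4 rose and 0 fell in zone II against zone I, and likewise in zone III against zone II. The 2 joint surface markers summed to 355 to 574, 99.5 to 166 and 65.9 to 88.4 in zones I, II and III. Sums were 208 to 879, 152 to 345 and 135 to 281 for 5 skeletal muscle markers. For 3 erythroid markers they were 156 to 246, 66.5 to 335 and 228 to 395, with Hba-a1 under 50 in every zone.

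**Figure D5:**
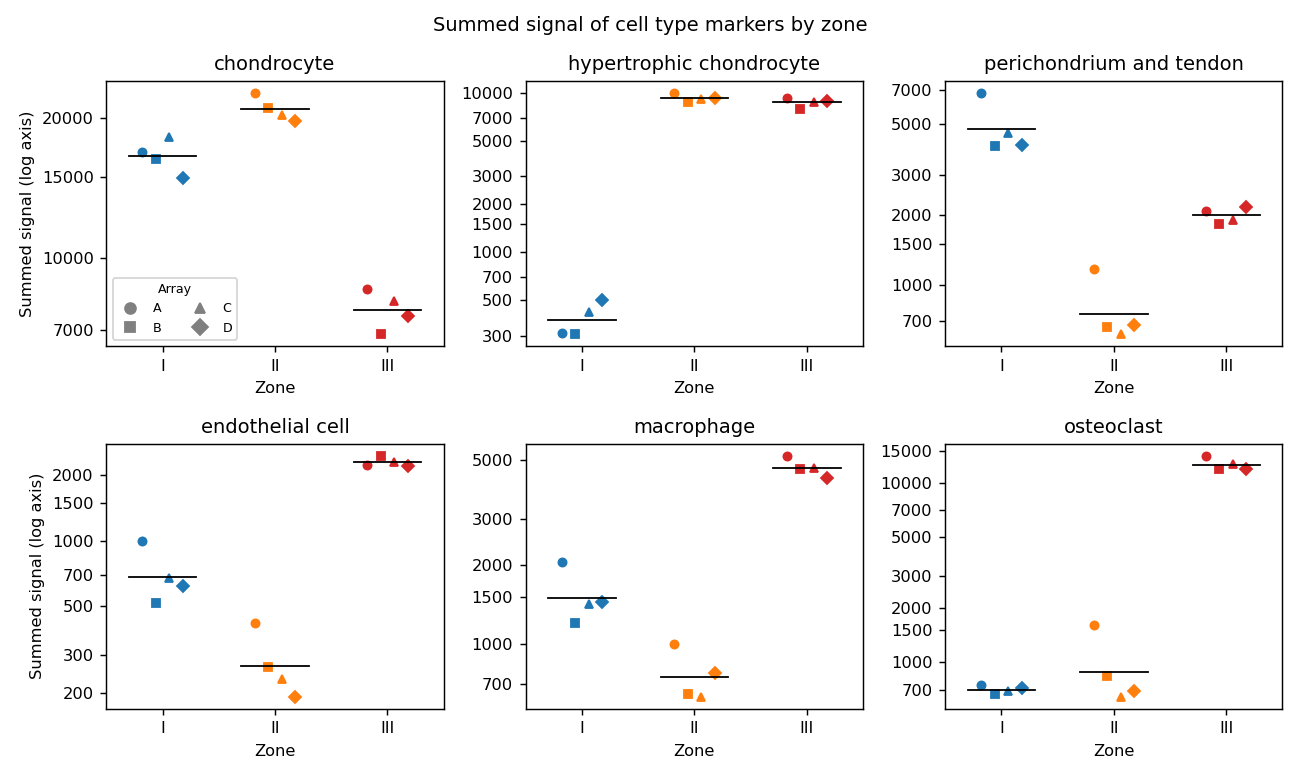
Signal summed over the markers of 6 cell types on each of 12 arrays (log axis, own scale per panel), by zone of the tibia, with array letters as symbols and the bar at the geometric mean of the 4 arrays. Perichondrium, endothelial and macrophage markers are lowest in zone II, and array A has the highest sum among the zone II arrays in 6 of 6 panels.

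Array A of zone II, on which Has2 was low and Vcan and Cd44 were highest in their zone, had the highest sum of that zone in these lists, with 1609 against 640 to 840 for osteoclast and 1171 against 614 to 675 for perichondrium and tendon markers. Without it Vcan had differences of −3.98 for zone II minus zone I and 2.27 for zone III minus zone II, and Cd44 had −1.48 and 2.73, all past the test. The counts of members that rose and fell were then 4 and 2 between zone II and zone I, 3 and 3 between zone III and zone II, and 1 and 4 between zone III and zone I.

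The trimmed mean signal was 150.0 on every array, with 18407 to 21170 probe sets at 50 or more. The Gapdh 3′/5′ ratio was 1.98 to 2.28 on zone III arrays and 1.25 to 1.76 on those of zones II and I, and the actin ratio was 1.70 to 2.02 on zone III arrays and 2.09 to 3.23 on those of zones II and I. By their recorded hybridization times the arrays fell into 3 groups, taken as fluidics runs, each with all 3 zones. A run held 1 or 2 arrays of a zone. Within runs Has2 had 1.22 to 2.00 for zone II minus zone I and −3.16 to −1.98 for zone III minus zone II, Vcan had −4.36 to −2.88 and 1.32 to 2.24, and Cd44 had −1.78 to −0.89 and 2.30 to 2.66. Acan had 0.34 to 0.95 and −1.74 to −1.47, and Hapln1 had 0.60 to 1.16 and −2.21 to −1.75. Hapln3 had 0.74 to 0.86 and −0.87 to −0.10, and Hyal2 had −0.71 to −0.17 and 0.18 to 0.91.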

How the data were processed

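The deposited table holds linear signal intensity per probe set and array, scaled by the authors to 1 trimmed mean (2% off each end) of 150.0. Both GCRMA (GeneSpring GX) and RMA (RMAExpress) are named in the study's methods and RMA in the submitters' processing notes. Values scaled in this way look like neither, and the algorithm behind the deposited intensity was not given in the sources used here. Control probe sets (64 of 45101) were left out. Genes were named through GEO's platform annotation, by probe sets with 1 symbol (34945). Log2 signals (nothing added) were kept where some zone averaged 50 or more (22255 probe sets, 11807 genes), and compared with limma 3.58.1 in R 4.3.3 over all 12 arrays, with Benjamini-Hochberg adjustment within a comparison. Counts are genes with an adjusted p under 0.05. The method was tested on simulated data. The members and lists were chosen with earlier results of these data known. Named are all members, up to 2 genes per list, comparison and direction, 8 fixed genes, and the 3 genes most like each member. The number of arrays limits the precision. Alternatives covered filters, scaling, the fit, blocks and leaving out each array.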

Additional observations from a re-analysis of the deposited data

Results flagged for a closer look

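In 6 of 123 groups of 4 arrays looked at, 1 array stood apart from the other 3 by more than the limit of Dixon's test, and chance gives this in about 1 in 20 groups. Has2 on array A of zone II read 902, against 1573 to 1645 on the other arrays of the zone. Stab1 on the same array read 45.5, against 18.0 to 18.7. On array D of zone II Fbln2 read 319, against 190 to 203, and Ugdh read 3433, against 3828 to 3894. Adamts8 read 77.1 on array A of zone I, against 54.3 to 55.6, and 17.8 on array B of zone II, against 28.8 to 31.5.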

How the results depend on the processing

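Vcan, Hapln1, Has2 and Cd44 kept direction and call in the 3 comparisons under all 25 alternatives, and Acan did so in zone III against each other zone. Over the 7 tested genes, 257 values kept both under other settings, 4 gained and 8 lost the call and 1 changed sign. With 1 array left out these numbers were 244, 1, 6 and 1. With arrays centred on ribosomal protein genes 2 members rose in zone II against zone I in place of 4, and the median of all probe sets moved to −0.37, 0.53 and 0.15 in the 3 comparisons, beside −0.07, 0.09 and 0.01. Pathway genes that rose in zone II against zone I then numbered 3 in place of 6, also 3 after quantile normalization, and those that fell in zone III against zone II numbered 7 in place of 11. Probe sets that rose and fell between zone II and zone I numbered 1300 and 8730 with ribosomal centring and 4096 and 3394 with median centring, beside 3368 and 4946. Between zone III and zone II these were 11731 and 1726, 4289 and 6486, and 6348 and 4660. Between zone III and zone I they were 5671 and 2886, 3552 and 4694, and 4672 and 4219.

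Among the members and the pathway genes named with values, these signs turned, of which only that of Adamts9 had passed the test. Hyal2 in zone III against zone I was −0.0181 with median centring and −0.0034 to 0.1249 with 1 array left out. In zone II against zone I, Adamts9 was 0.0147 by the median of its probe sets, Gusb −0.25 with ribosomal centring and −0.0519 to 0.2222 with 1 array left out, and Has1 0.0559 with quantile normalization and 0.0265 with median centring. In zone III against zone II, Layn was −0.0894 and −0.0371 in those settings and Ncan 0.14 with ribosomal centring. Ugdh in zone III against zone I was 0.0129 with quantile normalization and 0.0090 with ribosomal centring. The other tested pathway genes were followed as list counts under the scalings alone, where with ribosomal centring 4 of 5 synthase and degrading enzymes were below 0 in zone II against zone I in place of 2 and 1 of 7 precursor enzymes in place of 0. The causes were not tested.

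By the study's methods each litter gave all 3 zones and counted as 1 experiment, so the zones are matched by litter. The array letters are not said to pair the zones, and the main fit treated the 12 arrays as independent. Deviations of same-letter arrays had r from −0.13 to 0.26 (12 pairs, median 0.15), not all over 0.1. Those of arrays with different letters had −0.30 to 0.23 (36 pairs, median −0.05). Some pairs of either kind also shared a fluidics run, so these values do not separate the letter from the run. With the letter as a replicate block 3 members fell in zone II against zone I in place of 2, since Hyal2 passed (−0.44, adjusted p = 0.0330), and the other member counts were 4, 3, 4, 1 and 4 as before. Among the named pathway genes the block changed 1 call, that of Tnfaip6 in zone III against zone II (0.68, adjusted p = 0.0405).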
